A study of Mus musculus with 446 samples.

Results

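Lipoprotein lipase and the genes that set its activity were followed in 3 tissues of male Diversity Outbred mice, which descend from several founder strains and differ genetically from one animal to the next. The set holds 8 genes, chosen by symbol with earlier results of these data known: Lpl, Angptl4, Angptl8, Gpihbp1, Lmf1, Lipc, Lipg and Vldlr. The shares of these genes that passed are therefore descriptions and not tests of the set. All 8 were found among the 47643 genes of the liver table and of the muscle table, and 3 of the 8 (Lpl, Angptl4 and Lmf1) among the 2728 genes of the adipose table used here, which is partial. One group was fed the high-fat diet, with 60 kcal% fat, over 14 weeks, and the other stayed on the control diet (10 kcal% fat) that all mice had eaten before the start. The mice were housed singly at 6 weeks of age, and liver, muscle and abdominal adipose tissue were taken at the end. The 446 libraries came from 75 high-fat and 73 control adipose samples, and from 75 high-fat and 74 control samples each of liver and muscle, with a separate mouse behind each sample of a tissue. In mouse 80, on the high-fat diet, the liver library held 74% of the skeletal muscle marker level of muscle and the muscle library 166% of the hepatocyte marker level of liver, so both were left out, which leaves 74 high-fat and 74 control mice in liver and in muscle.

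Lipoprotein lipase, the product of Lpl, splits the triglycerides of circulating lipoproteins at the wall of capillaries, so that the tissue behind them can take up fatty acids. It is made mainly in adipocytes and muscle fibres, matures in the endoplasmic reticulum with the help of the chaperone LMF1, and is carried to the capillary lumen by GPIHBP1 of endothelial cells. ANGPTL4, induced by fatty acids through PPAR receptors and by fasting, inactivates the enzyme within the tissue. ANGPTL8, made in liver and adipose tissue on feeding, acts on the enzyme in other tissues. Lipc and Lipg encode hepatic and endothelial lipase, relatives of lipoprotein lipase that act on lipoprotein remnants and on HDL, and Vldlr encodes a receptor that binds triglyceride-rich lipoproteins near the enzyme.

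The RefSeq promoter table (GRCm38.p6) held 4 of the 8 genes by symbol (Angptl8, Lmf1, Lipc and Vldlr). The 250 bases before the annotated start are shown for Angptl8, whose liver level varied widely between mice, for Lmf1, whose diet difference had opposite signs in liver and adipose tissue, and for the first start of Lipc, whose level was high in liver and near 0 in muscle. The windows are chr9:21835260-21835509 on the plus strand, chr17:25578924-25579173 on the plus strand and chr9:70952222-70952471 on the minus strand. Capitals mark matches, on either strand, to any of 5 motifs: the nuclear receptor half-site AGGTCA, the CCAAT box CCAAT, the TATA box TATAAA, the E-box CACGTG and the GC box GGGCGG.
Angptl8: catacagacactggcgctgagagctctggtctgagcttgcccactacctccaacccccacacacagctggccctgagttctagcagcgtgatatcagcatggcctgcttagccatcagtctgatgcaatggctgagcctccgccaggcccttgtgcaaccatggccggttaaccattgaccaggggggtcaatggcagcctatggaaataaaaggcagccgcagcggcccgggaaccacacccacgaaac
Lmf1: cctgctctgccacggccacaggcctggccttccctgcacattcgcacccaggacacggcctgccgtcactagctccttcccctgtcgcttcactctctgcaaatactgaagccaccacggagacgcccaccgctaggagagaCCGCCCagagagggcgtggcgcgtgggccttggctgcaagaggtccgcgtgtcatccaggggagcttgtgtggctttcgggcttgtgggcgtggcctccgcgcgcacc
Lipc: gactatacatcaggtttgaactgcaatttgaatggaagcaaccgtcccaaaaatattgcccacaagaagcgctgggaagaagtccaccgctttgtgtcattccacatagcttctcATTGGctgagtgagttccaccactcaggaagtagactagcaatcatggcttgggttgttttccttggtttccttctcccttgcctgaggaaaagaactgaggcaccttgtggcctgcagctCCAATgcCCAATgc
The Angptl8 window held none of the 5 motifs. The Lmf1 window held 1 GC box, on the minus strand. The Lipc window held 3 CCAAT boxes, of which 1 lies on the minus strand and the other two start 14 and 7 bases before the gene start, and no match shown overlapped another. Over 32851 such mouse windows, 14.0% held AGGTCA, 33.8% CCAAT, 12.4% TATAAA, 6.02% CACGTG and 32.7% GGGCGG. These matches describe letters only, since factor binding was not measured.

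The deposited values are TPM, which are corrected for transcript length. TPM do not carry the number of reads, so library depth is unknown here and counting intervals are not given. Values below are scaled TPM, in which each library was scaled to the median library of its tissue over protein-coding genes. A low scale factor, under 33.3% of the tissue median, was found in 7 high-fat and 11 control adipose libraries, 12 high-fat and 14 control liver libraries, and 9 high-fat and 2 control muscle libraries. Genes classed as rRNA-like held at least 72.2% of the TPM in these liver libraries and at least 68.6% in these muscle libraries. The highest share among the other libraries was 74.1% in liver and 55.3% in muscle. In adipose tissue this share cannot be read, as the table is partial. Apart from mouse 80, 1 high-fat and 2 control livers, 5 high-fat and 5 control muscles and 4 high-fat and 1 control adipose samples held over 1% of the marker level of another of the tissues, and no call on the 8 genes changed without them. Each tissue carried its own markers: the 10 hepatocyte markers summed to a median of 59524 scaled TPM in high-fat liver and 64453 in control liver, and the 4 adipocyte markers of the adipose table to 1463 in high-fat and 2789 in control adipose tissue.

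The levels of the 8 genes differed between tissues, some widely and some little, and only Lpl, Angptl4 and Lmf1 could be followed in adipose tissue. Lpl was at a median of 3421 scaled TPM in high-fat and 4512 in control adipose tissue, 236 and 225 in high-fat and control muscle, and 3.05 and 4.82 in high-fat and control liver. No value of 1 tissue overlapped a value of another for Lpl, with the lowest adipose value at 1425 and the highest muscle value at 762. Angptl4 had medians of 524 in high-fat and 421 in control adipose tissue, 31.9 and 21.6 in high-fat and control liver, and 16.7 and 7.13 in high-fat and control muscle, and its liver and muscle values overlapped widely. Of these 3 genes, found in all 3 tables, Lmf1 was the most even, with medians between 10.4 in muscle on either diet and 30.9 in control adipose tissue. The tables were scaled separately, so these orders between tissues carry no test.

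Lipc was at a median of 64.2 scaled TPM in high-fat and 71.99 in control liver, against 0.026 and 0 in high-fat and control muscle. Its 2 highest muscle values, 9.19 and 5.73 in high-fat muscle, lay in the libraries with the most hepatocyte markers, at 13.5% and 7.25% of the liver level. Lipg was at medians of 4.43 in high-fat and 3.43 in control liver, and under 0.1 in muscle. Angptl8 was at medians of 61.2 in high-fat and 78.4 in control liver, and of 1.09 and 1.37 in high-fat and control muscle. Vldlr ran the other way, with medians of 66.6 in high-fat and 61.7 in control muscle and of 0.54 and 0.59 in high-fat and control liver. Gpihbp1 was at medians of 39.7 in high-fat and 39.6 in control muscle, and 14.0 and 15.9 in high-fat and control liver. Lipc and Lipg in muscle and Vldlr in liver did not reach 1 scaled TPM in enough libraries to be tested for diet.

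**Figure D1:**
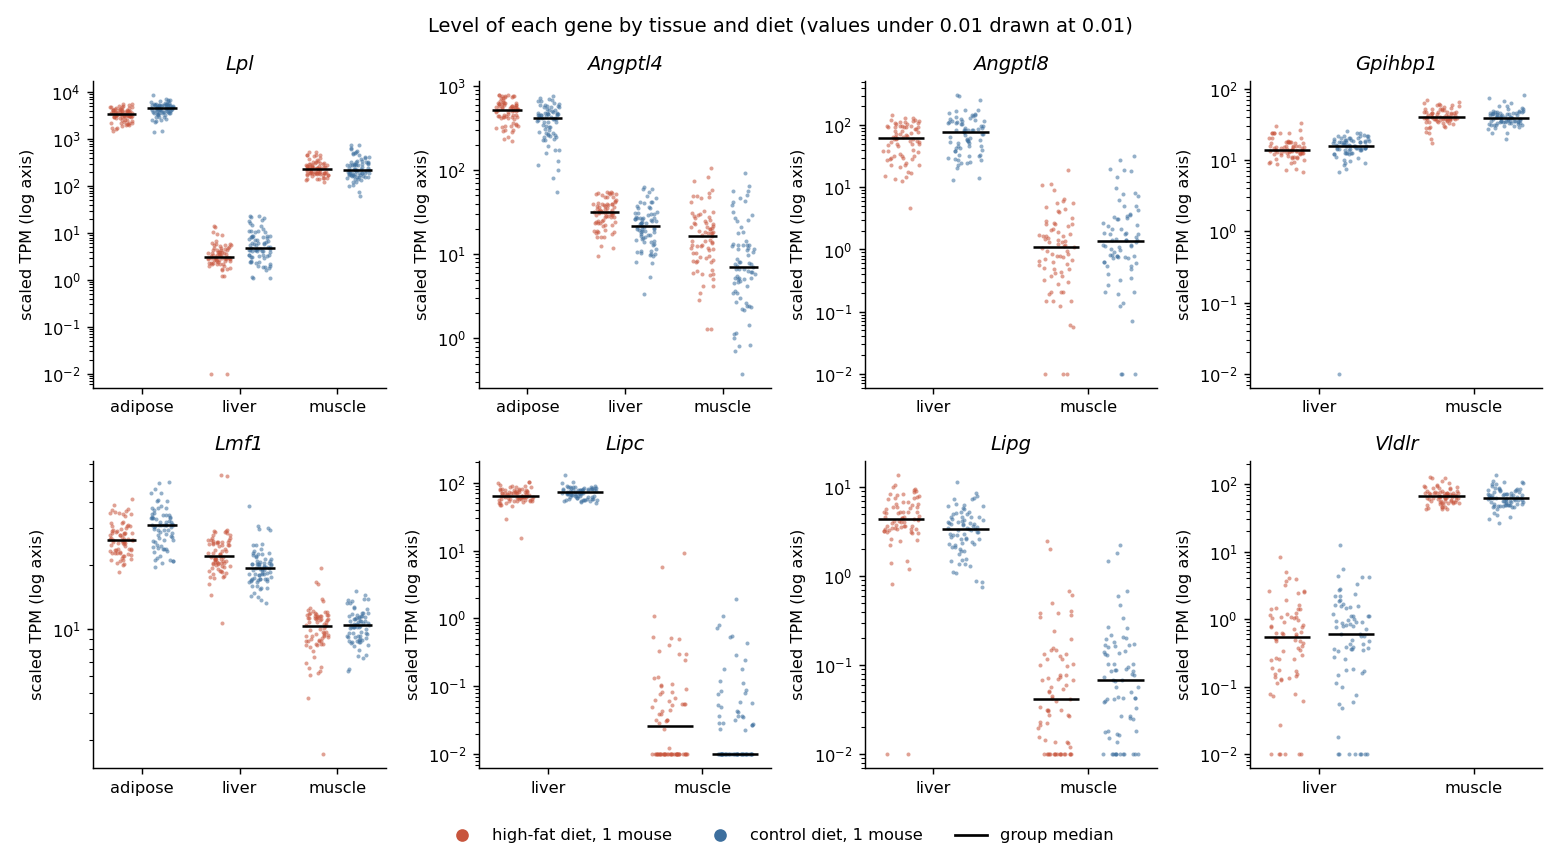
Level of each of the 8 genes in scaled TPM (log axis) by tissue, with 1 point per mouse, high-fat diet left and control diet right within each tissue, and black lines at the group medians. Lpl stands apart between all 3 tissues, Lipc is high in liver and Vldlr in muscle, and Lipg is low in liver and lower in muscle. Angptl4 in muscle has medians of 16.7 on the high-fat diet and 7.13 on the control diet.

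In adipose tissue, Lpl and Lmf1 fell and Angptl4 rose on the high-fat diet. All 3 members of the table passed (limma with Benjamini-Hochberg adjustment over all 2226 genes tested, threshold 0.05), against 45.6% of all genes tested there, so a pass is common in this table (22.9% higher and 22.7% lower). Lpl ranged over 1484, 3421 and 5591 scaled TPM (lowest, median and highest) in 75 high-fat mice, and over 1425, 4512 and 8703 in 73 control mice. The groups overlapped over most of their range, and 11 of 75 high-fat mice lay above the control median. The means were 3428 ± 996 on the high-fat diet and 4513 ± 1299 on the control diet (SD, n = 75 and 73), a log2 difference of -0.40 ± 0.08 (SE, limma adjusted p = 5.34e-06). On the unscaled TPM it was -0.15 and did not pass (adjusted p = 0.538).

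Angptl4 in adipose tissue ranged over 223, 524 and 784 scaled TPM in high-fat mice, and over 55.6, 421 and 754 in control mice. The low end differed most, as 9 control mice lay below every high-fat mouse, and 57 of 75 high-fat mice were above the control median. The means were 520.2 ± 147.8 on the high-fat diet and 405 ± 164 on the control diet, a log2 difference of 0.45 ± 0.10 (limma adjusted p = 8.43e-05). Lmf1 ranged over 18.7, 26.4 and 41.3 in high-fat mice and over 19.6, 30.9 and 49.4 in control mice. With means of 27.2 ± 4.96 on the high-fat diet and 30.8 ± 6.68 on the control diet it was lower by -0.16 ± 0.04 (limma adjusted p = 0.00164), a direction that turned to 0.08 on the unscaled TPM, where the median of all adipose genes stood at 0.21.

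Other cell type markers of the adipose table moved with the same diet, in a table where 22.9% of all genes tested rose and 22.7% fell. The 4 adipocyte markers listed there fell, among them the nuclear receptor Pparg (-0.48 ± 0.08, limma adjusted p = 2.48e-07) and the insulin-sensitive glucose transporter Slc2a4 (-0.73 ± 0.10, 1.11e-10). Of 3 tested macrophage markers, Cd68 (1.56 ± 0.17, 3.63e-13) and Adgre1 (1.18 ± 0.15, 2.43e-11) rose and Cd163 (-0.13 ± 0.08, 0.171) did not pass. The summed level of the 4 macrophage markers in the table ranged over 78.6, 277 and 1046 scaled TPM in high-fat mice and over 57.8, 114.004 and 628 in control mice, with the Kupffer cell marker Clec4f near 0 in both. Of 4 endothelial markers, Ptprb fell (-0.18 ± 0.06, 0.0146). An endothelial term in the fit changed no call on Lpl, Angptl4 or Lmf1. No adipocyte or macrophage term was fitted, and the part of these cell types in the differences was not tested. In bulk tissue fewer cells of a type cannot be told apart from less RNA per cell.

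In liver, Angptl4, Lmf1 and Lipg rose and Lpl fell on the high-fat diet, 4 differences of which none passed on the unscaled TPM (0.43, 0.12, 0.30 and -0.55 in that order, adjusted p of 0.238 or more). These 4 of 7 tested members passed, against 9.87% of 12376 genes tested (4.55% higher and 5.32% lower). Scaling by the summed TPM of coding genes moved the split of all liver calls to 299 higher and 1121 lower, against 563 and 659 here. Markers of hepatocytes moved with the diet too: of 10, 5 fell (Alb, Ttr, Fgb, Apoa1 and Apoa2, by -0.16 to -0.30) and Cyp2e1 rose (0.36 ± 0.07, 4.20e-05), with a median of -0.13. Their part in the differences of the 4 genes was not tested. Angptl4 ranged over 9.55, 31.9 and 55.4 scaled TPM in 74 high-fat livers, and over 3.39, 21.6 and 62.5 in 74 control livers. The groups overlapped, with 61 of 74 high-fat mice above the control median. The means were 32.5 ± 11.6 on the high-fat diet and 24.2 ± 13.1 on the control diet, a log2 difference of 0.51 ± 0.11 (limma adjusted p = 0.000274).

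Lpl in liver was low and fell further. It ranged over 0, 3.05 and 14.3 scaled TPM in high-fat livers, 2 of which were below 0.1, and over 1.09, 4.82 and 23.4 in control livers, 9 of which lay above every high-fat liver. The means were 3.82 ± 2.48 on the high-fat diet and 6.81 ± 5.41 on the control diet, a log2 difference of -0.56 ± 0.13 (limma adjusted p = 0.000637), and 14 of 74 high-fat mice were above the control median. Of 10 tested macrophage markers, the protease Ctss (-0.29 ± 0.09, 0.022) and the pore protein gene Mpeg1 (-0.34 ± 0.12, 0.0463) also fell, and the 12 macrophage markers summed to 60.2, 124.3 and 295 scaled TPM in high-fat livers and to 65.2, 147.4 and 398 in control livers. Their part in the Lpl difference was not tested. The 11 adipocyte markers summed to 0, 10.9 and 88.5 scaled TPM in high-fat livers and to 0, 9.85 and 40.6 in control livers. Adipoq, Cfd, Lep, Plin1 and Retn had medians under 0.1 there, and of the 4 tested Pparg rose (0.38 ± 0.11, 0.00861) while Fabp4, Lipe and Cidec did not pass.

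Lmf1 rose in liver, where it ranged over 10.7, 22.03 and 53.2 scaled TPM in high-fat and over 13.2, 19.3 and 37.96 in control mice. Its means of 23.3 ± 6.24 on the high-fat diet and 19.9 ± 4.19 on the control diet differed by 0.20 ± 0.05 (limma adjusted p = 0.00114), with 60 of 74 high-fat mice above the control median. Of 12 tested genes for lipase maturation, secretion and cleavage, 5 rose, 0 fell and 7 did not pass in liver. Of all liver genes tested, 4.55% rose and 5.32% fell. The median of the 12 was 0.089 beside -0.0058 over all liver genes. The 5 are the disulfide isomerase P4hb (0.15 ± 0.04, 0.00156), the proprotein convertase Pcsk6 (0.25 ± 0.08, 0.0162), Hspa5, the main chaperone of the endoplasmic reticulum (677 ± 232 on the high-fat diet and 507 ± 182 on the control diet, 0.41 ± 0.09, 0.000244), and Sel1l (0.21 ± 0.06, 0.00735) and Syvn1 (0.61 ± 0.12, 9.72e-05), which form the degradation complex that also serves lipoprotein lipase.

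Lipg averaged 4.99 ± 2.55 scaled TPM in high-fat livers and 3.73 ± 2.04 in control livers, a difference of 0.32 ± 0.11 (limma adjusted p = 0.0357) with 53 of 74 high-fat mice above the control median. This call was lost in 6 of 10 alternatives, with adjusted p up to 0.213 among those that scale the libraries. Lipc averaged 66.6 ± 15.0 in high-fat and 72.4 ± 13.5 in control livers (-0.14 ± 0.05, adjusted p = 0.0823), which did not pass here but did without libraries of low scale factor (-0.13, 0.0475) and with scaling by the summed coding TPM (-0.19, 0.00411). Gpihbp1 averaged 15.3 ± 5.17 in high-fat and 15.9 ± 4.48 in control livers (-0.04 ± 0.09, 0.849). The 12 tested endothelial markers, of the cells that make GPIHBP1, summed to medians of 98.3 in high-fat and 100.0 in control livers, and 0 of them passed limma (2 at an unadjusted p under 0.05).

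Angptl8 in liver spanned a wide range on both diets, with 4.63, 61.2 and 148.1 scaled TPM in high-fat livers and 12.96, 78.4 and 306 in control livers. The 8 highest livers were all control livers. The means of 64.2 ± 35.4 on the high-fat diet and 86.5 ± 59.3 on the control diet differed by -0.38 ± 0.16, which did not pass (limma adjusted p = 0.124). Without the libraries of low scale factor the difference was -0.54 (adjusted p = 0.0235). Genes known to be driven with Angptl8 by insulin and by LXR and SREBP1c fell as a list. The list was chosen with earlier results of these data known, and its link to the Angptl8 difference was not tested. Of 13 tested, 10 fell (against 5.32% of all liver genes tested) and 0 rose, with a median of -0.95. The largest was the desaturase Scd1, at 153 ± 268 on the high-fat diet and 1818 ± 1006 on the control diet (-4.94 ± 0.27, 3.67e-35), followed by the carboxylase Acacb (-2.01 ± 0.14, 3.59e-25).

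Fatty acid-activated PPAR targets, the group to which Angptl4 belongs, rose in part, and their link to the Angptl4 difference was not tested. In liver 7 of 16 tested rose and 1 fell, against 4.55% higher and 5.32% lower of all genes tested, with a median of 0.19. Cpt2 (0.47 ± 0.05, 5.25e-15) and Cpt1a (0.41 ± 0.05, 2.16e-09), which carry fatty acids into mitochondria, were among the 7, and Pdk4 (-0.46 ± 0.12, 0.00518), named after its value was seen, was the 1 that fell. Of 9 tested genes for uptake of lipoproteins and fatty acids, the fatty acid receptor Cd36 rose (0.43 ± 0.14, 0.0294), and the lipoprotein receptor Lsr (-0.35 ± 0.05, 2.95e-09), the phospholipid transfer protein Pltp (-0.48 ± 0.11, 0.00102) and the fatty acid carrier Fabp5 (-2.39 ± 0.20, 3.42e-19) fell.

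In muscle, Angptl4 was the only 1 of 6 tested members that passed, against 1.61% of 13515 genes tested (1.03% higher and 0.585% lower). Of the 218 muscle calls 79 were lower, against 32 lower and 274 higher with scaling by the summed coding TPM. Angptl4 ranged over 1.29, 16.7 and 105.6 scaled TPM in high-fat muscles, and over 0.38, 7.13 and 92.02 in control muscles. The median was 2.34 times as high on the high-fat diet, while the upper ends of the groups lay close together, and 61 of 74 high-fat mice were above the control median. The means were 21.3 ± 18.96 on the high-fat diet and 14.0 ± 17.5 on the control diet, a log2 difference of 0.86 ± 0.21 (limma adjusted p = 0.0106), against 0.64 (0.28) on the unscaled TPM.

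Lpl in muscle ranged over 123.6, 236 and 520.3 scaled TPM in high-fat and over 62.2, 225 and 762 in control mice. The groups overlapped, with 6 control muscles above and 6 below every high-fat muscle, and the difference of -0.01 ± 0.10 did not pass (adjusted p = 0.983). Gpihbp1 averaged 42.1 ± 10.3 in high-fat and 40.95 ± 10.9 in control muscles, and its difference of 0.04 ± 0.06 (0.847) turned to -0.16 on the unscaled TPM, where the median of all muscle genes stood at -0.15. Vldlr averaged 69.3 ± 18.8 in high-fat and 65.4 ± 20.5 in control muscles (0.10 ± 0.07, 0.545, and -0.11 unscaled). Lmf1 (-0.05 ± 0.05, 0.721) and Angptl8 (2.08 ± 3.09 on the high-fat diet and 3.52 ± 6.09 on the control diet, -0.29 ± 0.18, 0.518) did not pass either.

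Around these genes, 7 of 14 tested PPAR targets rose in muscle and 0 fell, against 1.03% higher and 0.585% lower of all muscle genes tested. Their median was 0.32 beside -0.0050 over all muscle genes. Plin5, a coat protein of lipid droplets (0.92 ± 0.11, 1.40e-09), and Acot1, an acyl-CoA thioesterase (1.05 ± 0.13, 3.15e-09), had the smallest p. Genes for uptake also rose, in 4 of 9 tested and with 0 lower: Cd36 (405 ± 145.2 on the high-fat diet and 318 ± 137.3 on the control diet, 0.38 ± 0.08, 0.00276), the fatty acid transporters Slc27a1 (0.36 ± 0.07, 0.000531) and Slc27a4 (0.21 ± 0.06, 0.0329), and the carrier Fabp3 (0.90 ± 0.23, 0.0223). Of 13 tested insulin and LXR genes 5 fell and 0 rose, among them Fasn, the fatty acid synthase (-1.21 ± 0.23, 0.000215). Of 12 tested maturation genes, Hspa5 rose (0.16 ± 0.04, 0.0223). All these lists were chosen with earlier results of these data known, and their link to the Angptl4 difference was not tested.

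**Figure D2:**
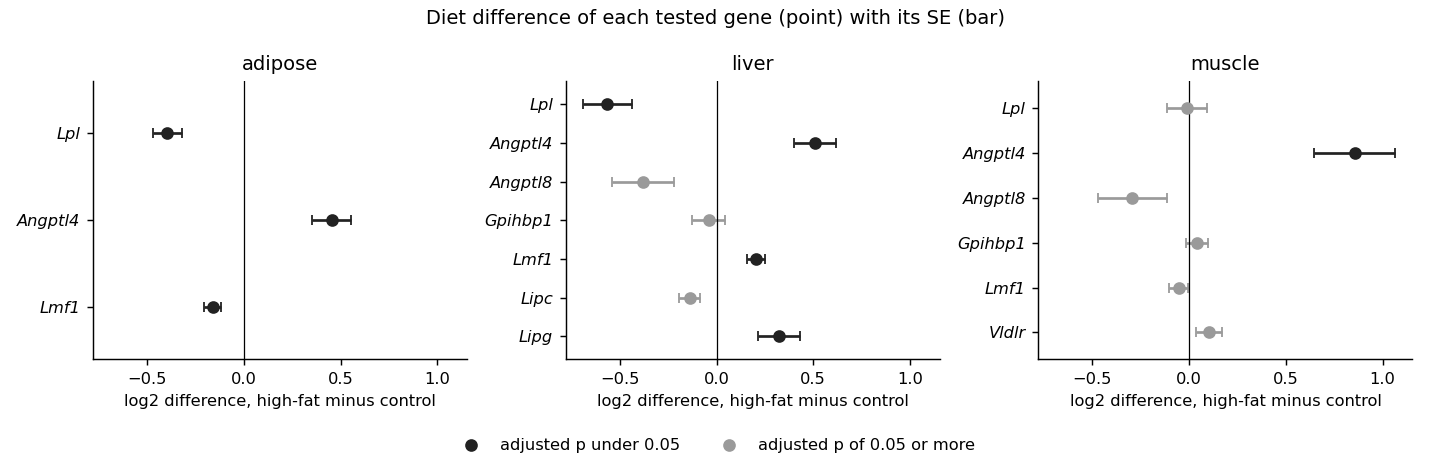
Log2 difference, high-fat minus control, of each tested gene in adipose tissue, liver and muscle, with points for the limma estimate and bars for its SE, in black where the adjusted p was under 0.05 and in grey otherwise. Angptl4 lies right of 0 in all 3 tissues (0.45, 0.51 and 0.86), and Lpl lies left of 0 in adipose tissue (-0.40) and liver (-0.56) and at -0.01 in muscle.

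The diet difference itself was then compared between tissues by an interaction term. Lpl was lower on the high-fat diet in liver than in muscle by -0.55 ± 0.16 (limma adjusted p = 0.0312), and muscle and adipose tissue differed by 0.38 ± 0.13 (0.0158). Lmf1, up in liver, differed from muscle by 0.26 ± 0.07 (0.0126) and from adipose tissue by 0.37 ± 0.07 (1.38e-06). For Angptl4 no pair of tissues passed, with -0.35 ± 0.24 for liver minus muscle (0.523), 0.05 ± 0.15 for liver minus adipose tissue (0.817) and 0.40 ± 0.23 for muscle minus adipose tissue (0.207). These 2 of 5, 1 of 3 and 1 of 3 members passed against 3.26% of genes for liver and muscle, 26.5% for liver and adipose tissue and 24.1% for muscle and adipose tissue. On the unscaled TPM none of these 4 differences passed, and that of Lpl between muscle and adipose tissue was -0.08.

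The amount of Angptl4 per Lpl in the same library does not depend on how a library is scaled. In adipose tissue it ranged over 6.36, 15.1 and 27.3 TPM of Angptl4 per 100 TPM of Lpl (lowest, median and highest) in high-fat mice, and over 1.57, 8.97 and 16.7 in control mice. Of 75 high-fat mice, 72 lay above the control median. In muscle the ratio was 0.745, 7.55 and 29.3 in high-fat mice and 0.130, 4.10 and 19.04 in control mice, with 57 of 74 high-fat mice above the control median. In liver, where Lpl is low, the medians were 1025 in 72 high-fat mice with at least 0.1 scaled TPM of Lpl and 442 in 74 control mice. The ratio combines 2 differences already given and carries no test.

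**Figure D3:**
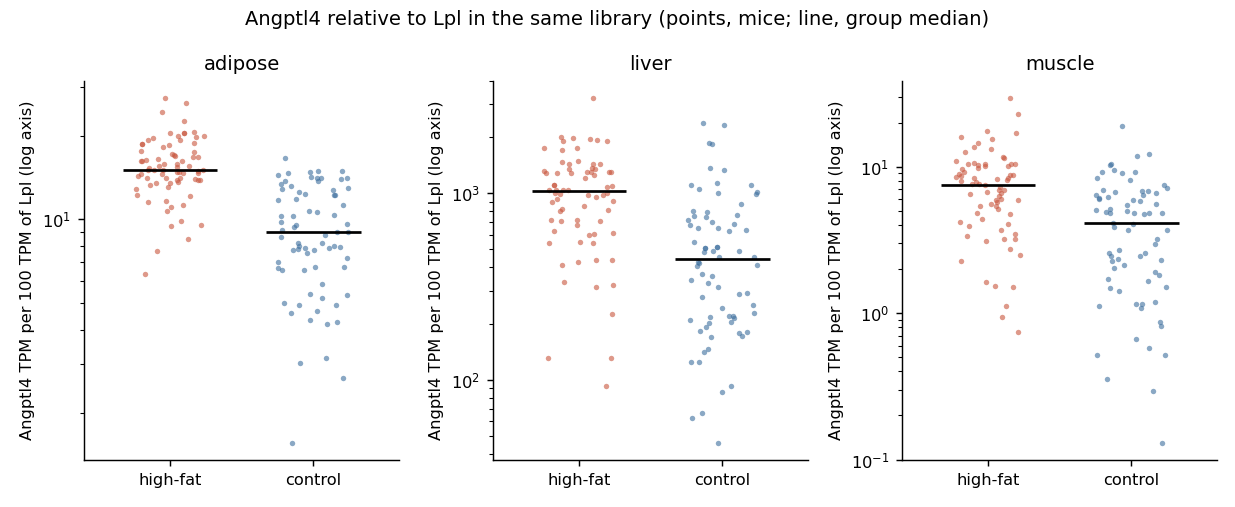
TPM of Angptl4 per 100 TPM of Lpl in the same library (log axis) in adipose tissue, liver and muscle, with 1 point per mouse, high-fat diet left and control diet right, and lines at the medians. The medians are 15.1 and 8.97 in adipose tissue, 1025 and 442 in liver, and 7.55 and 4.10 in muscle, on the high-fat and control diets in that order.

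Between mice on 1 diet, Lpl and Angptl4 ran together in adipose tissue, although the diet moved their means in opposite directions. Spearman's rho was 0.618 in high-fat mice (permutation p = 1e-05, the smallest that 100000 permutations can give, adjusted 0.000333) and 0.361 in control mice (p = 0.00184, adjusted 0.0167). Pearson's r of the log2 values was 0.651 (p = 1e-05, adjusted 0.000125) in high-fat mice and 0.458 (p = 0.00014, adjusted 0.00156) in control mice, and 0.602 and 0.364 without the 2 mice farthest from the median of Lpl. In all, 100 relations were computed, of which 11 passed by both coefficients: 2 of 6 in adipose tissue, 1 of 42 in liver and 8 of 30 in muscle. The share of pairs of other genes that would pass was not computed, so these counts cannot be called particular to the 8 genes.

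The 8 relations in muscle were 4 pairs, each on both diets. Lpl followed Angptl4 with rho of 0.582 in high-fat and 0.507 in control muscles (permutation p = 1e-05 and 2e-05, r = 0.604 and 0.601), and followed the capillary carrier Gpihbp1 with 0.454 and 0.469 (p = 5e-05 and 3e-05, r = 0.392 and 0.568). Lpl followed Angptl8 with rho of 0.409 in high-fat and 0.455 in control muscles (permutation p = 0.00034 and 7e-05, r = 0.549 and 0.572), and Angptl4 followed Angptl8 with 0.648 and 0.466 (p = 1e-05 and 3e-05, r = 0.673 and 0.573). The adjusted p of these rho values was at most 0.00378 and that of r at most 0.0054, and r without the 2 farthest mice lay between 0.377 and 0.664. Angptl8 was low in muscle, under 0.1 scaled TPM in 5 high-fat and 4 control libraries. Lpl, Angptl4 and Angptl8 each also followed adipocyte markers in muscle, as given below, and the part of adipocytes in these relations was not tested. In liver the 1 pair that passed was Gpihbp1 and Lipc in high-fat mice (rho = 0.377, permutation p = 0.00105, adjusted 0.0105, r = 0.376). For the same gene between 2 tissues of a mouse, 0 of 22 relations passed (1 at an unadjusted p under 0.05 by rho and another by r), with rho between -0.148 and 0.233.

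The genes that followed each member most closely were then listed by Spearman's rho of diet-centred log2 values, over libraries without a low scale factor and genes whose mean reached 5 scaled TPM, as a description with no test. The points are libraries of 1 tissue, whose depth is unknown and whose cell makeup varies between mice. In muscle (65 high-fat and 72 control libraries, 7953 genes), Angptl4 was most like Fabp4 (0.862), Lipe (0.862), Cidec (0.857), Trarg1 (0.838) and Prkar2b (0.837). The first 3 are on the adipocyte marker list, whose 10 compared members had a median rho of 0.80 with Angptl4, 0.73 with Angptl8 and 0.50 with Lpl. With 12 endothelial markers the median rho of Lpl in muscle was close to that, at 0.43. The median rho of Angptl4 in muscle was 0.56 with 6 macrophage markers, 0.43 with 13 insulin and LXR genes and 0.32 with 12 endothelial markers. It was 0.15 with 5 erythrocyte markers and -0.03 with 12 fatty acid-activated PPAR targets, beside -0.13 over all genes compared. Angptl8 in muscle was most like Slc25a10 (0.821), Agpat2 (0.819), Ptger3 (0.796), Mrap (0.792) and Arxes2 (0.784).

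The summed adipocyte markers in muscle ranged over 384, 1056 and 4732 scaled TPM in high-fat mice and over 415, 940.9 and 7098 in control mice, and 0 of 11 passed between diets in limma (4 at an unadjusted p under 0.05, among them Lep at 1.03 ± 0.31 and Cfd at -0.91 ± 0.28). Within a diet this sum had a rho of 0.836 in high-fat and 0.834 in control mice with Angptl4, and of 0.704 and 0.744 with Angptl8. With the mean log2 level of the adipocyte markers as a term in the fit, added after the values were seen, the diet difference of Angptl4 in muscle was 0.73 (limma adjusted p = 2.02e-06). That of Angptl8 was -0.39 (0.0414), the only 1 of 10 alternatives in which it passed. Of the other cell types, 0 of 12 endothelial (1 at an unadjusted p under 0.05), 0 of 9 macrophage (2), 0 of 7 hepatocyte (1) and 0 of 10 skeletal muscle (4) markers passed in muscle. Of 5 erythrocyte markers (2 at an unadjusted p under 0.05) 1 passed, as the globin gene Hbb-bs fell (-0.34 ± 0.10, adjusted p = 0.0471). An endothelial term in the fit, also added later, did not change the call on Angptl4 in muscle. No term was fitted for macrophage, hepatocyte, skeletal muscle or erythrocyte markers, and their part in the Angptl4 difference was not tested.

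Lpl in muscle was most like Cd36 (0.839), and Aldh2 (0.741) and Acsl1 (0.723) were also among its 5 closest partners. Cd36, which takes up the fatty acids that the lipase releases, had a rho with Lpl of 0.804 in high-fat and 0.873 in control muscles. The medians of Cd36 were 365 scaled TPM in high-fat and 285 in control muscles. Gpihbp1 in muscle was most like Cd300lg (0.593), a capillary endothelial gene, then Rbp7 (0.555), Timp4 (0.528), Acsl1 (0.515) and Pex11a (0.514). The median rho of Gpihbp1 in muscle was 0.28 with 12 endothelial markers and 0.17 with 10 adipocyte markers. Vldlr had weaker partners, led by Dbndd2 (0.430).

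In adipose tissue (68 high-fat and 62 control libraries, 1887 genes), Lpl was most like Mmd (0.795), Timm23 (0.773), Mocs2 (0.772), Abhd15 (0.763) and Nr1h3 (0.761), and Angptl4 was most like Dram1 (0.736), Chp1 (0.720), Ltc4s (0.714), Nr1h3 (0.690) and Bcap31 (0.683). Nr1h3, which encodes the oxysterol receptor LXR alpha, is on both lists, and its own level hardly moved with diet (90.1 ± 19.4 on the high-fat diet and 90.5 ± 20.7 on the control diet, log2 difference -0.00 ± 0.06, limma adjusted p = 0.990). In liver (62 high-fat and 60 control libraries, 6763 genes), Angptl8 was most like G0s2 (0.692), an inhibitor of triglyceride lipase inside the cell, and Inhbe (0.527), Wdr43 (0.493), Dusp6 (0.470) and Gm16286 (0.468). The median rho of Angptl8 in liver with 12 insulin and LXR genes was 0.13, beside 0.010 over all genes compared. Angptl4 in liver was most like Pim3 (0.583), Zbtb16 (0.528), St3gal5 (0.511), Nr1i2 (0.505) and Slc38a2 (0.488), Lipc like Coq8a (0.602) and Akr1c6 (0.546), and Gpihbp1 like Atp5e (0.517) and Ndufa2 (0.502). Lpl in liver had no partner above Dnajc12 (0.407).

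**Figure D4:**
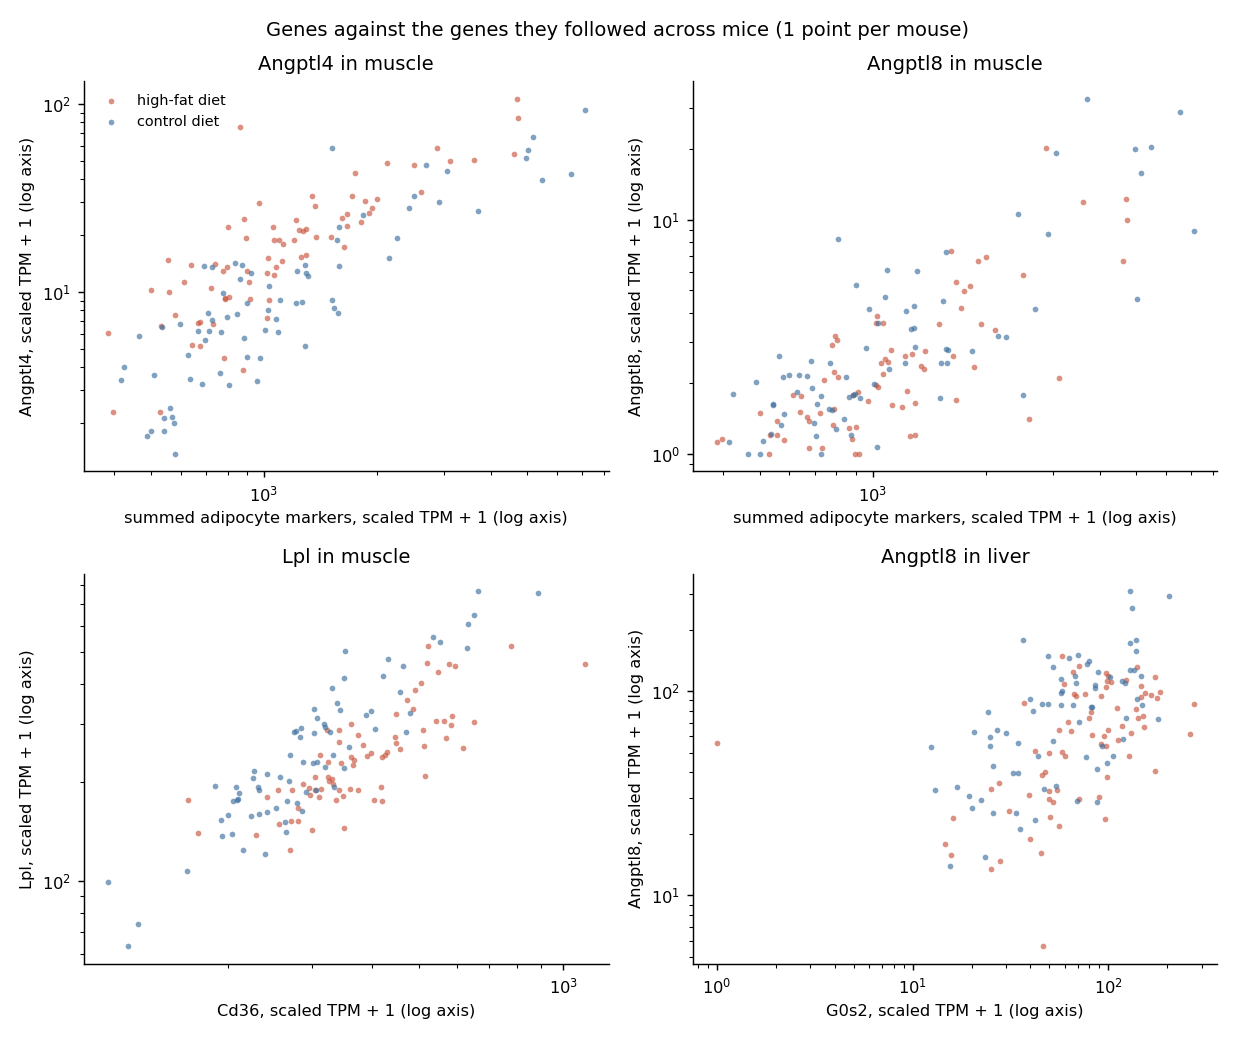
Scaled TPM + 1 (log axes) of Angptl4 and Angptl8 in muscle against the summed adipocyte markers, of Lpl in muscle against Cd36, and of Angptl8 in liver against G0s2, with 1 point per mouse in red for the high-fat and blue for the control diet. Within-diet rho is 0.836 and 0.834 for Angptl4, 0.704 and 0.744 for Angptl8 in muscle, 0.804 and 0.873 for Lpl, and 0.602 and 0.592 for Angptl8 in liver, on the high-fat and control diets in that order. The high-fat point at the far left of the liver panel is a library in which G0s2 is listed at 0.

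The study measured expression to look at variability among mice, and the spread of each gene around its diet median was compared between diets. No member passed in limma, against 2.38% of 1892 genes called in adipose tissue, 0.0269% of 7425 in liver and 0.0348% of 8617 in muscle. At an unadjusted p under 0.05 stood 1 of 3 members in adipose tissue, 2 of 6 in liver and 2 of 5 in muscle. The mean absolute deviation of Lpl on the log2 scale was 0.457 in high-fat and 0.711 in control livers (adjusted p = 0.999), and 0.389 in high-fat and 0.574 in control muscles (0.628). That of Angptl4 in adipose tissue was 0.351 in high-fat and 0.546 in control mice (0.130).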

How the data were processed

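Per the labels' protocols, stranded total RNA libraries of liver, muscle and adipose tissue were sequenced on MiSeq. Bowtie 1.2.2, Trim Galore 0.4.4 and FastQC are the tools in the submitters' processing notes. Which quantifier, annotation or build was used is not given in the sources used here. Values deposited by the authors are TPM, although the tables are named for counts: they are not whole numbers, and every liver and muscle library adds up to the same total over 47643 genes. The adipose table ended in 1 incomplete line, which was left out. A second number stands in the labels of 11 livers, which were kept.

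Ensembl IDs were matched to symbols of GENCODE M21 (99.1% in liver and muscle, 99.9% in adipose tissue). Within a tissue, libraries were scaled by a trimmed mean of log ratios to the gene-median library over nuclear protein-coding genes of at least 1 TPM other than Lars2, trimming 0.3 of the ratios and 0.05 of the levels at each end. The factors lay between 0.0388 and 1.28 in adipose tissue, between 0.0102 and 1.64 in liver and between 0.0455 and 1.85 in muscle. Genes with a scaled TPM of at least 1 in 0.7 of the smaller group's number of libraries were fitted as log2(scaled TPM + 1) by diet with limma 3.58.1 (trend, robust) in R 4.3.3, as two-sided tests. Benjamini-Hochberg adjusted p under 0.05 counted as a pass. Log2 differences are on that scale, which understates changes of low genes. Interactions were fitted over genes tested in both tissues, without a block. Spread, as each mouse's absolute deviation from its diet's median, was tested where the mean was at least 5. Relations used 100000 two-sided permutations within diet in Python 3.11.15, adjusted over 100 relations. The scripts were tested on simulated data.

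Same-numbered samples were taken to come from the same mouse, which not every sample bore out. On 150 genes chosen on other mice, 138 of 149 livers had their highest correlation with the same-numbered muscle (median r 0.614, against -0.0035 between mice). With the same-numbered adipose sample this held for 78 of 148 livers and 85 of 148 muscles. A fit with the mouse as block, other scalings, filters, pseudocounts and sets of libraries were alternatives. The 8 genes and the gene lists were chosen with earlier results of these data known. Named genes were the members, up to 4 of each list with the smallest p in a tissue, and the 5 most like partners, of which only some are printed for some members. Some of these genes are not reported here.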

Additional observations from a re-analysis of the deposited data

Results flagged for a closer look

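The diet difference itself differed between tissues for Lpl and Lmf1, by the interaction term in limma with Benjamini-Hochberg adjustment. For Lpl it was -0.55 for liver minus muscle (SE 0.16, adjusted p = 0.0312) and 0.38 for muscle minus adipose tissue (SE 0.13, adjusted p = 0.0158). For Lmf1 it was 0.26 for liver minus muscle (SE 0.07, adjusted p = 0.0126) and 0.37 for liver minus adipose tissue (SE 0.07, adjusted p = 1.38e-06). In single tissues, 60 of 74 high-fat livers and 15 of 75 high-fat adipose samples lay above the control median of Lmf1. For Lpl these were 14 of 74 livers, 41 of 74 muscles and 11 of 75 adipose samples.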

How the results depend on the processing

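Scaling mattered most. On TPM as deposited, 14.4% of genes passed in adipose tissue (300 higher and 17 lower, against 45.6% in all), 0.479% in liver (against 9.87%) and 0.111% in muscle (against 1.61%). The calls of Lpl in adipose tissue, of Lpl, Angptl4, Lmf1 and Lipg in liver and of Angptl4 in muscle were then lost, with adjusted p of 0.238 or more, while Angptl4 in adipose tissue passed in all 8 alternatives. Interactions fell to 0.064% for liver and muscle (against 3.26%) and 6.21% for liver and adipose tissue (against 26.5%), spread calls to 0% in adipose tissue and muscle (against 2.38% and 0.0348%) and 0.0142% in liver (against 0.0269%), and 78% of relations passed (against 11%). Signs turned on the unscaled TPM for Lmf1 in adipose tissue (0.076), Gpihbp1 (-0.16) and Vldlr (-0.11) in muscle, for the interactions of Gpihbp1 between liver and muscle (0.0082), of Angptl4 between liver and adipose tissue (-0.27), and of Lmf1 (-0.29), Angptl4 (-0.054) and Lpl (-0.080) between muscle and adipose tissue, and for the spread of Lpl in adipose tissue (-0.14) and of Gpihbp1 (0.20) and Vldlr (0.12) in muscle. With scaling by the summed coding TPM, Lpl in muscle was 0.038. Without libraries of low scale factor, 15.7% passed in liver and 5.73% of interactions of liver and muscle, and the spread of Gpihbp1 in liver was 0.023. In muscle, 0.301% passed with no filter, 1.05% with mouse 80 and 2.76% with the adipocyte term. Spread calls in liver were 0.0135% with a pseudocount of 0.1, and Gpihbp1 in liver was 0.033 with an endothelial term. The cause was not tested, and neither was the part of the rRNA-like share of the liver and muscle libraries. The replicate block (the mouse) gave 4.09%, 27.8% and 26.2% of interactions (against 3.26%, 26.5% and 24.1%) and changed no call on the 8 genes. Without mice whose liver and muscle did not match, rho of Gpihbp1 and Lipc in high-fat livers was 0.324 (adjusted p = 0.0708). Depth is unknown, which limits the precision of values near 0.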

Other observations

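Regulators of these genes differed between tissues in what passed. Of all genes tested, 22.9% rose and 22.7% fell in adipose tissue, so a pass is common there, against 4.55% and 5.32% in liver. Of 3 tested PPAR and coactivator regulators in adipose tissue 3 fell on the high-fat diet: Pparg (176 ± 60.6 scaled TPM on the high-fat diet and 241 ± 64.7 on the control diet), Ppard (-0.22 ± 0.06, limma adjusted p = 0.00331) and Rxra (-0.22 ± 0.06, 0.00387). In liver 3 of 10 rose and 2 fell, with Rxra at 0.19 ± 0.04 (0.000638) and Pparg, which is scarce there, at 0.38 ± 0.11 (0.00861), against Ppard at -0.53 ± 0.11 (0.000332) and the coactivator Ppargc1a at -0.39 ± 0.10 (0.00248). In muscle 0 of 10 passed limma (1 at an unadjusted p under 0.05). Whether these effects differ between tissues was not tested.

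Of 6 genes for lipolysis inside the cell, the adipose table holds 2, and both fell there, against 22.7% of all genes tested. They are hormone-sensitive lipase, Lipe (692 ± 315 on the high-fat diet and 895 ± 305 on the control diet, -0.44 ± 0.10, limma adjusted p = 0.000223), and the lipase inhibitor G0s2 (-0.43 ± 0.09, 5.00e-05). In liver the monoglyceride lipase Mgll rose (0.26 ± 0.07, 0.0039) and the lysosomal lipase Lipa fell (67.5 ± 15.8 on the high-fat diet and 83.3 ± 16.5 on the control diet, -0.31 ± 0.05, 1.46e-06), 2 of 6 tested. In muscle Mgll rose (0.43 ± 0.11, 0.026) and the other 5 tested did not pass. Of all genes tested, 9.87% passed in liver and 1.61% in muscle. Differences between tissues were not tested for these lipolysis genes. Among cofactors of lipoprotein lipase in adipose tissue, Apoe fell (-0.47 ± 0.08, 1.14e-06) and the activator Apoc2 did not pass (0.17 ± 0.16, 0.402).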
